A study of Mus musculus with 20 samples.

Results

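Progenitor-labelled cells of control mouse retina were compared between postnatal day 5 (P5) and postnatal day 2 (P2). The members were all cells that the deposited annotation calls Progenitors in the 8 libraries that received GFP alone, 4 at each age. They numbered 7301 of the 49665 control cells, 5608 at P2 and 1693 at P5, out of 11818 progenitors and 79009 cells in the 20 libraries of the series. P2 controls 1 to 4 held 2482, 696, 1327 and 1103 members, and P5 controls 1 to 4 held 195, 376, 982 and 140. All 8 libraries came from wild-type retinas of the outbred CD1 strain kept as explants, electroporated with a GFP control construct (in the design text an empty pCAGIG plasmid, whose CAG promoter is active in most cell types). GFP-positive cells were then isolated for droplet sequencing of transcript 3′ ends. The libraries with MEIS constructs were not used here. The sample labels give P2 and P5 as ages, whereas the series design text gives 2 or 5 days of treatment and names NR2F1 and NR2F2 constructs where the labels name MEIS. Age and days in culture therefore cannot be told apart. No label says whether the libraries of an age came from separate animals or cultures, so the p-values measure only the spread between these libraries.

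Retinal progenitors are the dividing cells of the neural retina, and they make its neurons and glia in a set order. Late progenitors make rods, bipolar cells and, last, Müller glia, the radial support cells that keep a number of progenitor transcription factors after leaving the cell cycle. NFI factors are known to favour the late state, Notch signalling holds cells undifferentiated, and proneural factors such as Neurog2 and Atoh7 start neurogenesis.

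The libraries of the 2 ages differed in depth and in the makeup of the progenitor label. Median UMIs (unique molecular identifiers, 1 per captured transcript) per member lay between 5503 and 12424.5 in the P2 libraries and between 10925.5 and 24147 in the P5 libraries. Median mitochondrial shares were 1.85% to 3.78% and 3.32% to 6.91%. Of the 3 deposited clusters under the label, cluster 3 held 64.6%, 69.8%, 46.8% and 92.3% of members in P2 controls 1 to 4. In P5 controls 1 to 4 it held 93.8%, 95.5%, 74.1% and 97.1%, so the ages overlapped. Its cells gave 0.0284% of UMIs to a G2 and mitosis list and 1.95% to a Müller glia list. In cluster 12 these shares were 1.20% and 0.853%, and in cluster 16 1.95% and 0.748%. Sums below mix the clusters unless cluster 3 is named. Members made up 14%, 14.8%, 25.2% and 27.4% of the cells in P2 controls 1 to 4 and 3.10%, 9.50%, 17.2% and 7.15% in P5 controls 1 to 4 (20.4% ± 6.96 and 9.23% ± 5.91, SD, n = 4). That difference did not pass a two-sided exact permutation test over the 70 splits of 4 against 4 (p = 0.0857, smallest possible 0.0286). In these captured cells, fewer cells of a type and less RNA per cell cannot be told apart in a summed level. Any pair of control libraries shared at most 30 cell barcodes, up to 0.637% of the smaller library. A doublet caller marked 11.2% of the cells of P2 control 1 but 1 cell each of P2 control 2 and P5 control 1, where it has not worked. Among members it marked 427, 0, 120 and 80 cells in P2 controls 1 to 4. In P5 controls 1 to 4 it marked 0, 6, 33 and 1 members. Leaving out predicted doublets therefore took away mostly P2 members.

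The labels of some libraries go against their barcodes. In P2 control 1 each cell's barcode is prefixed by a combination library's name, and in the other 7 control libraries the prefix is a control of the right age but another number. In P2 control 1 the members held 302 CPM of Meis1 (CPM, a gene's counts scaled to a common library total), against 164 to 185 CPM in P2 controls 2 to 4. Along the first principal component, which took up 57.3% of the variance, P5 control 3 lay at 6.82, between P2 controls 1 to 4 (-42.3, -60.1, -80.3 and -20) and P5 controls 1, 2 and 4 (70.2, 59.6 and 66.1).

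Counts were summed over the members of each library and tested with edgeR's quasi-likelihood test, and genes with an adjusted p under 0.05 (Benjamini-Hochberg) were called. Of 13217 genes that passed a filter on low counts, 2117 (16.0%) were called, 1411 (10.7%) higher at P5 and 706 (5.34%) lower. Without P2 control 1 the test called 2361 genes, 1416 higher and 945 lower, and without P5 control 3 it called 2815. Leaving out P2 control 2, P2 control 3 or P5 control 1, 2 or 4 gave 963, 1177, 1228, 1108 and 1152 calls. DESeq2 called 1646 higher and 1281 lower, and with the replicate number as a block edgeR called 2925, of which 1623 were higher and 1302 lower. With each cell thinned to 1000 UMIs, 8388 genes could be tested and 565 were called, 437 higher and 128 lower. Levels are given below as CPM scaled by TMM factors, for P2 controls 1 to 4 and then P5 controls 1 to 4, in that order. Fold changes are log2 values from the fit, P5 less P2, over 4 libraries a side. The value after ± is an approximate SE, the fold change divided by the square root of the test's F. That F uses a dispersion that edgeR moderates across genes, so it is not the spread of a gene's own libraries alone.

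Transcription factors that mark retinal progenitors were present at both ages. Pax6, needed for progenitors to stay multipotent, was at 232, 326, 380.4 and 357 CPM at P2 and 299, 351, 290.0 and 414 CPM at P5. The groups overlapped, and it was not called (log2 fold change 0.06 ± 0.21, edgeR adjusted p = 0.856). Rax and Sox2, further regulators of retinal progenitors, were not called either (log2 fold change -0.03, edgeR adjusted p = 0.926 and log2 fold change 0.53, edgeR adjusted p = 0.0881). Of the 15 core progenitor genes, 15 passed the filter, 2 were called higher (Six6 and Vim, beside 10.7% of all genes) and 1 lower (Meis2, beside 5.34%), with a median log2 fold change of 0.31 beside -0.01 for all genes tested. The call of Six6 was lost with the replicate block (edgeR adjusted p = 0.0557) and without 5 of the 8 libraries in turn, with adjusted p up to 0.108. Vim, an intermediate filament of progenitors and glia, rose from 541, 632, 456 and 680.1 CPM to 1447, 1489, 1182 and 1182 CPM (log2 fold change 1.20 ± 0.22, edgeR adjusted p = 0.00608).

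Meis2, a homeobox factor of the family the series is about, fell in these control cells. Its level was 168, 123, 107 and 119 CPM at P2 and 46.2, 39.4, 45.9 and 33.9 CPM at P5. Every P5 library lay below every P2 library (log2 fold change -1.64 ± 0.19, edgeR adjusted p = 0.000843). The gene lies on mm10 at chr2:115863064-116065839, minus strand. With groups read from the barcode starts, the fold change was -2.84. That reading puts 319 cells in the place of the 2482 members of P2 control 1, and the labels give those 319 to a P2 library that received MEIS1 and MEIS2 constructs. Meis1 ranged from 164 to 302 CPM over the 8 libraries and was not called (log2 fold change -0.05 ± 0.22, edgeR adjusted p = 0.892). GFP itself ranged from 10481 to 50589.7 CPM and was not called (log2 fold change -0.13, edgeR adjusted p = 0.902).

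Members with transcripts of the cell cycle made up a smaller share in 3 of the 4 P5 libraries than in any P2 library. After each cell was thinned to 1000 UMIs, a UMI of Mki67 or Top2a, markers of dividing cells, was seen in 20.6%, 19.1%, 38.6% and 6.07% of members in P2 controls 1 to 4. The shares in P5 controls 1 to 4 were 1.03%, 1.34%, 16.1% and 0%, lower than in the same-numbered P2 library in all 4 pairs. The 0% was 1 random draw of UMIs from 140 cells, and another draw, made without predicted doublets, gave 2.88% of 139 cells there. P5 control 3 lay among the P2 libraries, above P2 control 4, so the groups overlapped (21.1% ± 13.4 against 4.62% ± 7.67, SD, n = 4). The difference did not pass (two-sided exact permutation p = 0.0571, adjusted over 3 measures 0.0857). This test does not pair the libraries. No label pairs them, and the pairing by number was chosen from these same counts. An exact paired test over 4 pairs is too small to reach 0.05. In rods, which do not divide, the same share was 0.0818% to 0.760% at the same thinned depth. Unthinned, the progenitor shares were 36.4%, 29.2%, 51.8% and 11.3% at P2 and 11.3%, 7.45%, 28.8% and 12.1% at P5. Thinning left out 30 P2 cells and 5 P5 cells under 1000 UMIs.

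All 40 genes of a G2 and mitosis list passed the filter and all 40 had a negative fold change, with a median of -2.04, yet 2 were called (Cks2 and Hmgb2), a share near the 5.34% of all genes called lower. All 40 S phase genes were also negative, with a median of -1.02, and again 2 were called (Mcm7 and E2f1). Without P5 control 3 the calls were 40 of 40 and 34 of 40, and the medians -4.12 and -1.90, where 9.22% of all genes tested were called lower. With the replicate block the calls were 40 and 30, with medians of -2.84 and -1.27, beside 9.85% of all genes called lower. That block was chosen from these same counts, and no label gives it. Leaving out any other single library gave 0 to 5 calls in the first list (1 without P2 control 1, 5 without P2 control 4, none without P2 control 2, P2 control 3 or P5 control 1, 2 or 4). In the second it gave 0 to 8 (5 without P2 control 1, 1 without P2 control 2 or 3, 8 without P2 control 4, 2 without P5 control 1 and none without P5 control 2 or 4). Of all genes, 945 of 13381 were called lower without P2 control 1 and 911 of 13438 without P2 control 4. The others of these fits called 265 to 339 lower. DESeq2 called 5 and 9, beside 1281 of all 13217 genes called lower. At an unadjusted p under 0.05 edgeR counted 23 and 14, beside 4397 of all 13217 genes in either direction. In the members' UMIs, the G2 and mitosis list took up 0.0363% to 0.0445% in P5 controls 1, 2 and 4, beside 0.0210% to 0.0333% of rod UMIs at P5 and 0.0357% to 0.0464% at P2. The share was 0.416% in P5 control 3 and 0.183% to 0.931% in the P2 libraries.

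In single cycle genes, too, P5 control 3 lay apart from the other P5 libraries. Top2a, which untangles DNA for mitosis, was at 309, 371, 961 and 149 CPM at P2 and at 10.9, 17.9, 277 and 4.89 CPM at P5. Its call depended on the fit, and in the main fit it was not called (log2 fold change -2.51 ± 1.11, edgeR adjusted p = 0.145). The fold change was -3.95 with edgeR adjusted p = 0.00222 under the replicate block, and -5.27 with adjusted p = 0.00135 without P5 control 3. The replicate block was chosen from these same counts and no label gives it. Its p-values, here and below, are therefore not independent support. Mki67, a chromosome surface protein of dividing cells, was at 134, 119, 222 and 33.7 CPM and then 8.33, 8.69, 142 and 6.11 CPM. It was not called (log2 fold change -1.58 ± 0.96, edgeR adjusted p = 0.269), but was under the replicate block (-2.70, adjusted p = 0.01) and without P5 control 3 (-4.02, adjusted p = 0.00156). Ube2c, which serves the anaphase-promoting complex, was at 238, 269, 678 and 63.6 CPM and then 4.52, 8.96, 185 and 1.83 CPM, and was likewise called only in those fits (log2 fold change -2.60 ± 1.22, edgeR adjusted p = 0.163, then -4.28 with adjusted p = 0.00286 and -5.84 with adjusted p = 0.00177). Cks2, a subunit of cyclin-dependent kinases, was called (log2 fold change -2.78 ± 0.84, edgeR adjusted p = 0.0485). Hmgb2, a chromatin protein of cycling cells, was called as well (log2 fold change -2.0 ± 0.60, edgeR adjusted p = 0.0479). P5 control 3 lay above P2 control 4 for both. Cks2 lost its call without P2 control 2, P2 control 3 or P5 control 1, 2 or 4 (adjusted p 0.0918 to 0.137), and Hmgb2 without these or P2 control 1 (0.0508 to 0.124). Ccnd1, the cyclin of the G1 phase, stayed at 263, 252, 563 and 361 CPM at P5 against 462, 436, 325 and 346 CPM at P2 and was not called (log2 fold change -0.13 ± 0.27, edgeR adjusted p = 0.782). Of 17 genes that brake the cycle, 1 (Ccng2) was called, lower, a share near the 5.34% of all genes. The replicate block called 6 of them lower (9.85% of all genes), and the test without P5 control 3 called 5 (9.22%), without P2 control 4 it called 3, without P2 control 1 or P5 control 1 it called 2, and without P2 control 2, P2 control 3, P5 control 2 or P5 control 4 none. Cdkn1b, the inhibitor p27, was at 114 to 178 CPM at P2 and 166 to 217 CPM at P5 (log2 fold change 0.42, edgeR adjusted p = 0.142).

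The 100 bases before the start sites of the 4 G2 and mitosis genes named above are shown because all 40 fold changes of the list were negative. They come from the RefSeq promoter table (GRCm38.p6) and are written 5′ to 3′ on the gene's strand. Capitals mark CCAAT or its reverse complement ATTGG, and TTTGAA or its reverse complement TTCAAA, the letters of the CHR element known from mitotic genes.
Top2a: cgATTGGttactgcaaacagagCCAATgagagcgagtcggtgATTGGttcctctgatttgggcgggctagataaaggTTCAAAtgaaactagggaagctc
Ube2c: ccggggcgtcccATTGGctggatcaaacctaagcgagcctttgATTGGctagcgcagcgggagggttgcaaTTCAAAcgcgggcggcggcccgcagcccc
Hmgb2: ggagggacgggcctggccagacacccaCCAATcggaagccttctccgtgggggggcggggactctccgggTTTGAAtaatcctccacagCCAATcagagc
Cks2: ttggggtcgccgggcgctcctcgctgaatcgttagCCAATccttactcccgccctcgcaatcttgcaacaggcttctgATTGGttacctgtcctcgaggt
They lie at chr11:99024190-99024289 (minus strand) for Top2a, chr2:164769829-164769928 (plus strand) for Ube2c, chr8:57511743-57511842 (plus strand) for Hmgb2 and chr13:51645132-51645231 (plus strand) for Cks2. Top2a, Ube2c and Hmgb2 held 1 CHR match each in this window, starting 23, 29 and 30 bases before the start site. Top2a held 3 CCAAT matches and the other 3 genes held 2 each. Promoters of 34 of the 40 list members were in the table. In their 250 bases before the start, 13 (38.2%) held a CHR match on either strand and 25 (73.5%) a CCAAT match. Of all 27025 promoters in the table, 16.3% and 34.5% did. For the S phase list the counts were 4 and 19 of 33. CCAAT was also held by 13 of 20 neurogenic promoters, 11 of 22 immediate early and stress promoters and 4 of 24 Müller glia promoters, and CHR by 1 in each of these lists. The motifs do not overlap, and a match is a description of letters, not evidence of binding.

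Of 22 genes known from early progenitors, 18 passed the filter, 5 were called lower (Fgf15, Igf2bp1, Igf2bp2, Sfrp2 and Foxn4, beside 5.34% of all genes) and 1 higher (Hmga2, beside 10.7%). 17 of the 18 had a negative fold change, with a median of -0.50, and in 6 all P5 libraries lay below all P2 libraries (7.72% of all genes tested). Fgf15, a growth factor of early progenitors on mm10 chr7:144896531-144900953, plus strand, was at 16.2, 20.7, 17.5 and 17.3 CPM at P2 and 3.33, 0.922, 5.17 and 1.83 CPM at P5. All P5 libraries lay below all P2 libraries, with P5 control 3 the highest of them (log2 fold change -2.60 ± 0.42, edgeR adjusted p = 0.00370). Igf2bp1, an RNA-binding protein of fetal tissues, fell from 42.7, 42.4, 49.4 and 44.7 CPM to 7.85, 5.80, 22.1 and 11.9 CPM (log2 fold change -1.88 ± 0.35, edgeR adjusted p = 0.00767). Sfrp2, a secreted Wnt antagonist, fell from 20.4, 25.5, 19 and 20.5 CPM to 6.42, 2.90, 12.7 and 4.28 CPM (log2 fold change -1.64 ± 0.39, edgeR adjusted p = 0.0197). Its call was lost without P2 control 2, P5 control 1 or P5 control 4 in turn, at adjusted p of 0.0581, 0.0522 and 0.0566. Foxn4 lost its call without 6 of the 8 libraries in turn, with adjusted p up to 0.0915. Hmga2, a chromatin protein of fetal stem cells, went the other way, from 11.5, 4.83, 8.40 and 7.47 CPM to 41.4, 24.5, 46.4 and 54.7 CPM (log2 fold change 2.33 ± 0.31, edgeR adjusted p = 0.00162). The list's share of UMIs was 0.0700% ± 0.0145 at P2 and 0.0509% ± 0.00881 at P5 (SD, n = 4, two-sided exact permutation p = 0.0571, adjusted over 6 lists 0.0686).

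Of 19 genes known from late progenitors, 18 passed the filter, 6 were called higher (Car2, Crym, Gpr37, Nfix, Zfp36l1 and Sox8, beside 10.7% of all genes) and none lower (5.34%), with a median of 0.45. Without predicted doublets, P2 control 2, P2 control 3 or any single P5 library 3 were called higher, where 663 to 1578 genes in all were. DESeq2 called none lower either, and none was lower at an unadjusted p under 0.05. Crym, a thyroid hormone binding protein on mm10 chr7:120186380-120202111, minus strand, was at 535, 739.7, 261 and 525 CPM and then 3569, 6870.1, 2401 and 5356 CPM. The lowest P5 library was 3.25-fold above the highest P2 library (log2 fold change 3.14 ± 0.43, edgeR adjusted p = 0.00186). Car2, the enzyme carbonic anhydrase II, rose from 254, 335, 246 and 278 CPM to 1562, 2239.7, 1056 and 2059.5 CPM (log2 fold change 2.64 ± 0.28, edgeR adjusted p = 0.000657). Gpr37, a receptor of glial cells, rose from 90.3, 67.8, 56.7 and 96.2 CPM to 448, 369.7, 261 and 346 CPM (log2 fold change 2.19 ± 0.24, edgeR adjusted p = 0.000752). Nfix rose from 200.3, 139.8, 89.7 and 158 CPM to 221, 246, 275 and 337 CPM (log2 fold change 0.87 ± 0.25, edgeR adjusted p = 0.0389), but that call was lost without 7 of the 8 libraries in turn, with adjusted p up to 0.121. Sox8 likewise lost its call without 7 of them, with adjusted p up to 0.103, and Zfp36l1 without 7 of them, up to 0.12. Nfia and Nfib, the other NFI factors, were not called (log2 fold change 0.31 ± 0.21, edgeR adjusted p = 0.319, and log2 fold change 0.29 ± 0.22, edgeR adjusted p = 0.375). The list took up 0.575% ± 0.0613 of the UMIs at P2 and 1.27% ± 0.248 at P5, and the 4 P5 libraries lay above the 4 P2 libraries. The two-sided exact permutation p was 0.0286, the smallest possible, and 0.0686 adjusted over the 6 lists. Among the named members, Crym (mean 515 to 4549 CPM) and Car2 (278 to 1729 CPM) rose most in CPM and so led this share. Gpr37 is also counted in the Müller list below. In neurogenic cells the late list took up 0.244% to 0.471% of UMIs at P2 and 0.432% to 0.828% at P5. In rods it took up 0.170% to 0.324% and 0.214% to 0.295%.

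**Figure D1:**
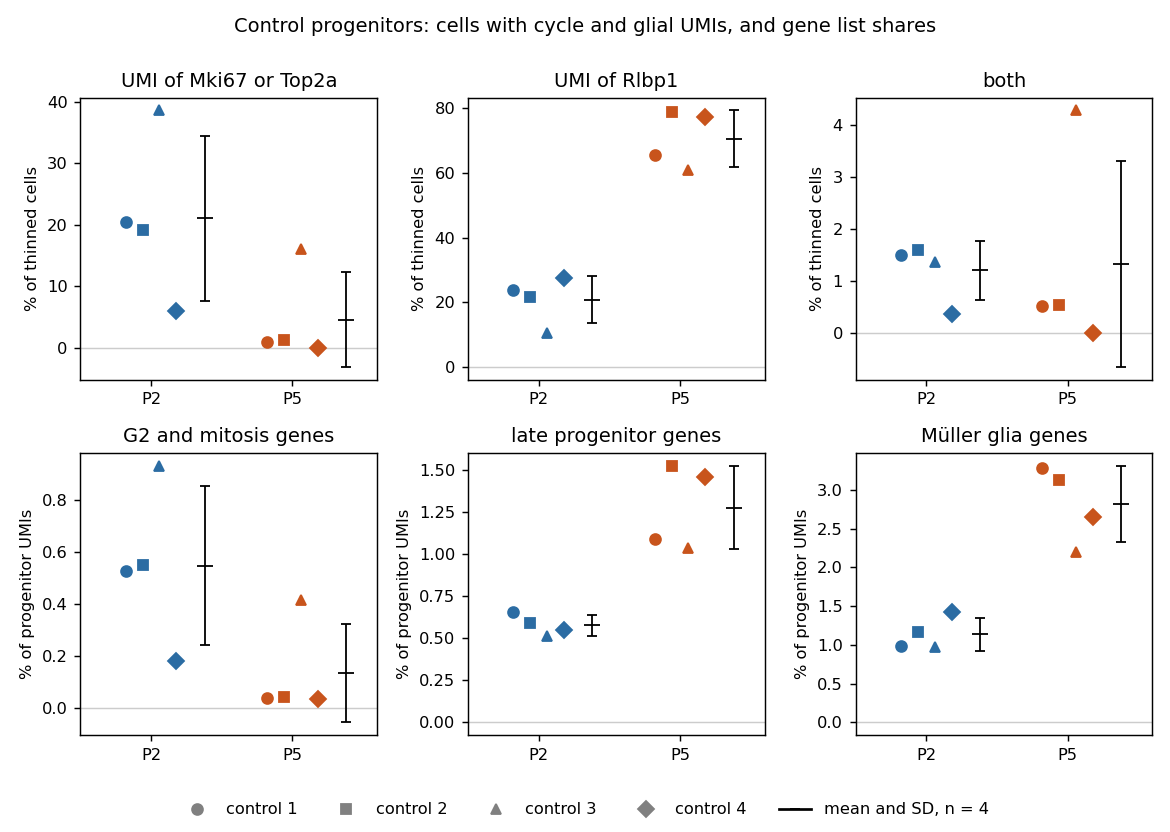
Values per control library of members with a UMI of the named genes after thinning to 1000 UMIs (top row, percent of cells), and of the list's share of all member UMIs (bottom row, percent); each point is 1 library, and the bar and whisker are the mean and SD of 4. P5 control 3 sits apart from the other P5 libraries in both cycle panels, while the Rlbp1, late progenitor and Müller glia panels show no overlap between ages.

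Genes of Müller glia were mostly higher at P5. Of 29 listed genes, 28 passed the filter, 19 were called higher at P5 (10.7% of all genes) and 1 lower (Fabp5, beside 5.34%), with a median of 1.39. In 19 of the 28 all P5 libraries lay above all P2 libraries, which was so for 13.6% of all genes tested. Rlbp1, a retinaldehyde binding protein of the visual cycle and a defining Müller marker on mm10 chr7:79374870-79387048, minus strand, was at 248, 294, 131 and 368 CPM at P2 and 1266, 1810.0, 1039 and 1366 CPM at P5. Its mean CPM was 5.27-fold higher at P5 (log2 fold change 2.40 ± 0.33, edgeR adjusted p = 0.00188). Slc1a3, the glutamate transporter GLAST, rose from 360.2, 247, 186 and 444 CPM to 1092, 1416, 1184 and 1278 CPM (log2 fold change 2.01 ± 0.29, edgeR adjusted p = 0.00215). Apoe, a lipid carrier, rose from 786, 1207, 710.5 and 2176 CPM to 14990.2, 9626, 5579.9 and 6940.3 CPM (log2 fold change 2.93 ± 0.48, edgeR adjusted p = 0.00404).

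Clu, Aqp4 and Abca8a rose from low levels, Glul from a higher one, and Fabp5 fell. Clu, a secreted chaperone, was at 6.47, 3.02, 3.98 and 7.34 CPM at P2 and 171, 151, 69.3 and 80.3 CPM at P5 (log2 fold change 4.46 ± 0.39, edgeR adjusted p = 0.000253). Aqp4, the water channel of mature glia, was at 0.399, 0.402, 0.589 and 0.902 CPM and then 10.9, 4.61, 4.45 and 6.72 CPM (log2 fold change 3.55 ± 0.45, edgeR adjusted p = 0.00138). Abca8a, a lipid transporter, had 1, 0, 2 and 0 UMIs in P2 controls 1 to 4 and 221, 586, 32 and 85 UMIs in P5 controls 1 to 4. Glul, glutamine synthetase, rose from 226, 208, 205 and 286 CPM to 587, 464, 314 and 410.2 CPM (log2 fold change 0.94 ± 0.22, edgeR adjusted p = 0.0209), a call that was lost without P2 control 2, P2 control 3, P5 control 1 or P5 control 2, at adjusted p of 0.0746, 0.0566, 0.0563 and 0.0557. Fabp5, a fatty acid binding protein also made by dividing progenitors, fell from 185, 202, 431 and 158 CPM to 32.8, 35.3, 109.8 and 13.4 CPM (log2 fold change -2.33 ± 0.57, edgeR adjusted p = 0.0229). It lost its call without P2 control 3, P5 control 1 or P5 control 2, at adjusted p of 0.0607, 0.0655 and 0.0689.

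Cells with an Rlbp1 UMI after thinning to 1000 UMIs made up 23.7%, 21.6%, 10.4% and 27.4% of members at P2 and 65.5%, 78.8%, 61.0% and 77.1% at P5. No library of one age overlapped the other (20.8% ± 7.29 against 70.6% ± 8.72, SD, n = 4). The two-sided exact permutation p was 0.0286, the smallest possible, and 0.0857 adjusted over the 3 measures. In rods the share was 0.0905% to 0.560% at P2 and 0.374% to 1.22% at P5. Unthinned, it was 74.6%, 54.3%, 37.8% and 80.3% of P2 members and 97.9%, 98.9%, 94.3% and 100% of P5 members. Cells with UMIs of both Rlbp1 and a cycle marker made up 1.5%, 1.59%, 1.37% and 0.363% of thinned members at P2 and 0.515%, 0.538%, 4.28% and 0% at P5, and the ages overlapped (two-sided exact permutation p = 0.943). Unthinned, they were 18.0%, 10.8%, 11.4% and 5.53% at P2 and 10.3%, 6.91%, 23.7% and 12.1% at P5, which overlapped too.

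The deposited annotation also has a separate Müller glia class, with 59 cells in the P2 and 74 in the P5 control libraries. The Müller list took up 2.44% of that class's summed UMIs at P5 and 1.09% at P2. In the members it was 3.29%, 3.13%, 2.20% and 2.65% in P5 controls 1 to 4 and 0.988%, 1.16%, 0.966% and 1.43% in P2 controls 1 to 4 (two-sided exact permutation p = 0.0286, adjusted 0.0686). Per library (3 to 46 cells), the list's share in the separate class was 0.974% to 1.92% at P2. In P5 controls 1 to 4 it was 2.26%, 2.70%, 2.67% and 1.12%. The members of P5 controls 1 and 2 lay above all of these, and those of P5 controls 3 and 4 lay within the P5 range. At P2 the members of P2 control 3 lay just below the P2 range and the others within it. The G2 and mitosis list took up 0.0460% of that class's UMIs at P5, beside the 0.0363% to 0.0445% of members in P5 controls 1, 2 and 4. Summed over the P5 members of those 3 libraries, both progenitor factors and glial genes were thus present. Sums do not show whether the same cells held both. The members are called progenitors here as the annotation does. Pax6, Rax and Sox2 are known to be kept by Müller glia too. Among members with a UMI of Mki67 or Top2a, 10 of 26 Müller genes were called higher (2.60% of all genes tested), with a median of 1.42 over 4 P2 and 3 P5 libraries. These were 904, 203, 687 and 125 cells in P2 controls 1 to 4 and 22, 28 and 283 in P5 controls 1 to 3. P5 control 4 had too few such cells. These cells were chosen at full depth, which was greater in P5 controls 1 and 2. There 11.3% and 7.45% of all members held such a UMI at full depth, but 1.03% and 1.34% after thinning to 1000 UMIs. All 40 G2 and mitosis genes had a negative fold change among the chosen cells too (median -1.01). Within cluster 3, the deposited cluster that held most members and gave 0.0284% of its UMIs to the G2 and mitosis list, 19 of 28 were called higher (10.9% of all genes tested), with a median of 1.15.

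Of 25 genes that start or mark neurogenesis, 22 passed the filter and 15 were called lower (5.34% of all genes), none higher, with a median of -2.26. DESeq2 called 17 lower and 1 higher. Without predicted doublets edgeR called 15 of 22 lower and 1 higher, with a median of -2.16. At an unadjusted p under 0.05 edgeR counted 1 higher, the antiproliferative gene Btg2 (log2 fold change 1.52, edgeR adjusted p = 0.0529), named after its values were seen. The same list had 12 of 16 genes called lower within cluster 3 (7.08% of all genes tested) and 4 of 21 among members with a cycle UMI (0.610%). In neurogenic cells of these libraries 7 of 21 were called lower (2.61%), and in rods 11 of 22 (4.81%).

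Atoh7, the proneural factor of ganglion cells, was at 20.3, 14.3, 25.1 and 9.27 CPM at P2. At P5 it was at 1.11 CPM (14 UMIs) in P5 control 3 and had no UMI in P5 controls 1, 2 and 4 (log2 fold change -5.27 ± 0.75, edgeR adjusted p = 0.00215), so that without P5 control 3 no P5 library holds it and no fold is given. Neurod4, a proneural factor of the NeuroD family, fell from 55.1, 66.2, 74.7 and 161 CPM to 5.71, 2.5, 22.2 and 0.611 CPM (log2 fold change -3.40 ± 0.75, edgeR adjusted p = 0.0154). Neurod1, which acts in photoreceptor precursors, fell from 177, 114, 134 and 278 CPM to 25.2, 8.30, 69.1 and 9.16 CPM (log2 fold change -2.62 ± 0.63, edgeR adjusted p = 0.0207). Otx2, a master factor of photoreceptor and bipolar fate, fell from 202, 112, 124 and 178 CPM to 19.3, 6.19, 64.0 and 5.80 CPM (log2 fold change -2.65 ± 0.67, edgeR adjusted p = 0.0251). Neurod1 lost its call without P5 control 1 or P5 control 4 (adjusted p = 0.0587 and 0.0522), and Otx2 without P5 control 1, 2 or 4 (0.0706, 0.0538 and 0.0565).

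Calls of Neurog2 and Olig2, factors of neurogenic progenitors, depended on the fit. Neurog2, which starts neurogenesis, was at 38.1, 42.6, 42.9 and 37.5 CPM at P2 and 18.3, 3.56, 31.7 and 2.75 CPM at P5, with no overlap, and was not called (log2 fold change -1.47 ± 0.60, edgeR adjusted p = 0.117), but was under the replicate block (-1.96, adjusted p = 0.0331). Olig2, which marks progenitors close to their last division, was at 13.9, 9.85, 25.9 and 5.41 CPM at P2. At P5 it had 87 UMIs in P5 control 3 and none in the other libraries (edgeR adjusted p = 0.106, and 0.0120 under the block). That block was chosen from these same counts.

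In the Notch pathway 3 ligands fell. Of 22 genes 20 passed the filter, 5 were called lower (the ligands Dll1, Dll3 and Dll4, and Hes6 and Mfng, beside 5.34% of all genes) and 1 higher (the receptor Notch2, beside 10.7%), with a median of -0.27. The call of Notch2 was lost with thinned cells and without P2 control 2, P2 control 3 or P5 control 1, 2 or 4. Dll4 lost its call without 4 of the 8 libraries in turn (edgeR adjusted p up to 0.0608). It had 2, 2, 32 and 0 UMIs in P5 controls 1 to 4. Dll1, Dll3, Dll4 and Hes6 are also counted in the neurogenic list above. Dll3, a ligand-like inhibitor made by cells entering neurogenesis, fell from 22.0, 20.1, 20.6 and 16.4 CPM to 1.43, 0, 3.58 and 0.611 CPM (log2 fold change -3.61 ± 0.65, edgeR adjusted p = 0.00639). Dll1, a Notch ligand, fell from 32.4, 72.8, 75.0 and 41.1 CPM to 17.8, 5.4, 18.4 and 5.19 CPM (log2 fold change -2.21 ± 0.46, edgeR adjusted p = 0.0118). Mfng, which modifies Notch receptors, fell from 32.7, 38.6, 30.8 and 30.4 CPM to 6.19, 1.45, 8.27 and 1.53 CPM (log2 fold change -2.85 ± 0.47, edgeR adjusted p = 0.00413). Hes1 and Hes5, transcriptional repressors that Notch induces, were not called (log2 fold change 0.39 ± 0.45, edgeR adjusted p = 0.572, and log2 fold change -0.02 ± 0.37, edgeR adjusted p = 0.975). Hes5 was at 533 to 1727 CPM at P2 and 799.6 to 1754 CPM at P5.

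**Figure D2:**
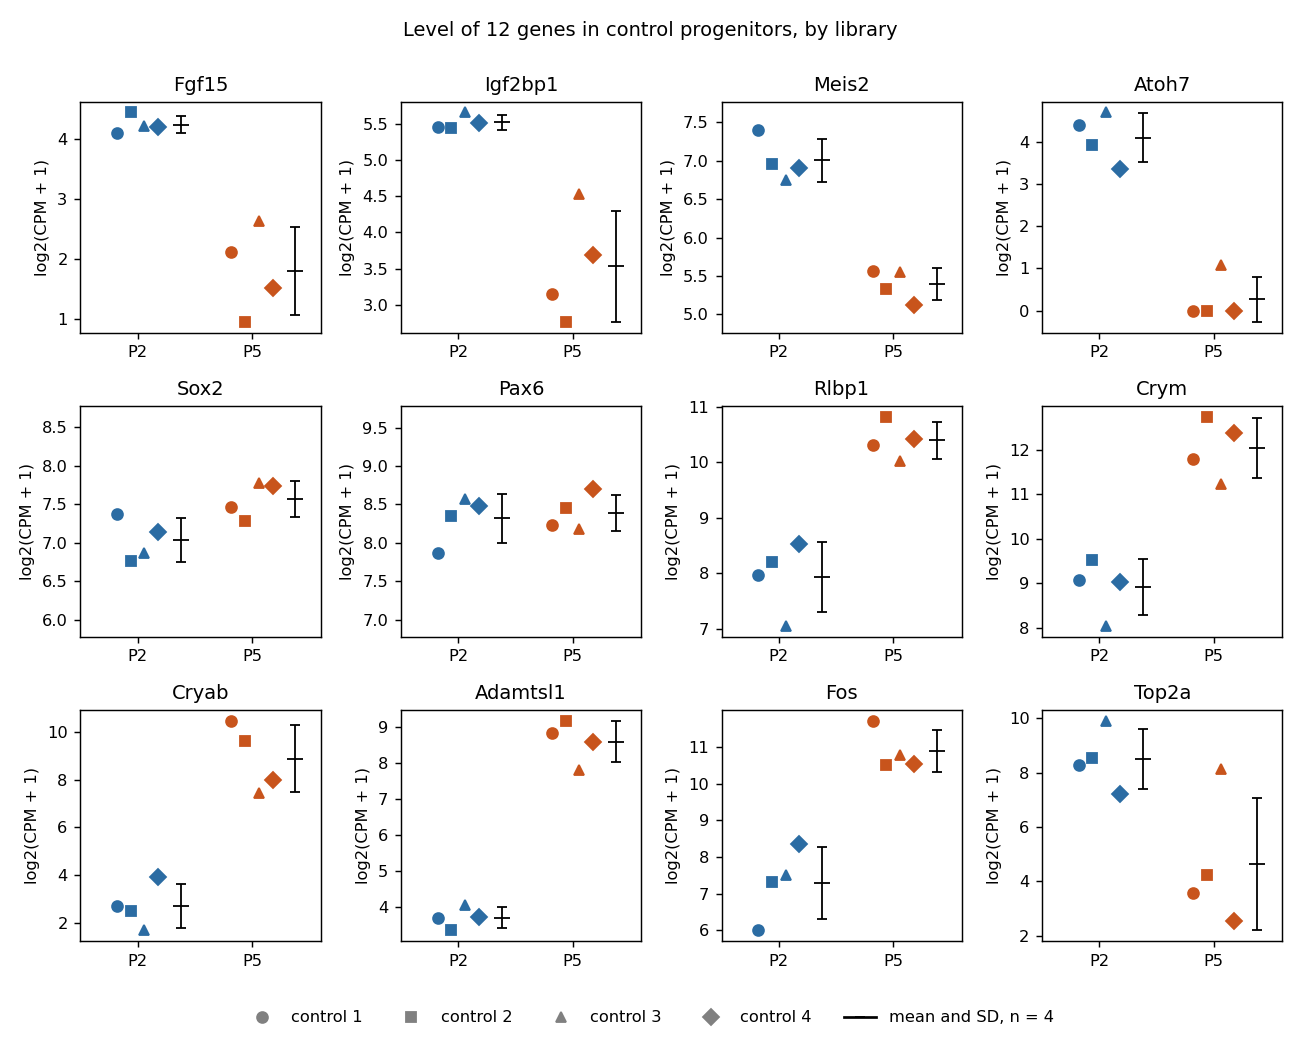
Level of 12 genes per control library as log2(CPM + 1), each panel with its own axis of at least 3 log2 units; points are libraries, and the bar and whisker are the mean and SD of 4. Fgf15, Igf2bp1, Meis2 and Atoh7 sit lower in all P5 libraries, Rlbp1, Crym, Cryab, Adamtsl1 and Fos higher in all of them, Sox2 and Pax6 overlap, and for Top2a P5 control 3 lies among the P2 libraries.

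The genes that rose most were low at P2. By rule these were called genes with no overlap between ages and a mean log2 CPM of at least 5, ranked by fold change. Cryab, a small heat shock protein of glia and lens, was at 5.59, 4.63, 2.21 and 14 CPM at P2 and 1409, 780.2, 171 and 251 CPM at P5 (log2 fold change 6.61 ± 0.84, edgeR adjusted p = 0.00138). Rgs6, a regulator of G protein signalling, rose from 8.33, 6.64, 6.34 and 4.77 CPM to 271, 748, 148 and 582 CPM (log2 fold change 6.05 ± 0.54, edgeR adjusted p = 0.000253). Flt1, a receptor for vascular endothelial growth factor, rose from 1.44, 2.01, 1.33 and 2.06 CPM to 93.0, 81.4, 38.8 and 84.0 CPM (log2 fold change 5.47 ± 0.33, edgeR adjusted p = 8.98e-05). Myof, a membrane repair protein, rose from 2.24, 1.41, 2.80 and 1.80 CPM to 98.7, 113, 42.3 and 76.1 CPM (log2 fold change 5.28 ± 0.36, edgeR adjusted p = 8.98e-05). Adamtsl1, a secreted matrix protein on mm10 chr4:85514172-86428385, plus strand, rose from 11.9, 9.25, 15.8 and 12.4 CPM to 457, 574, 224 and 386 CPM (log2 fold change 5.05 ± 0.33, edgeR adjusted p = 8.98e-05). In each of these, P5 control 3 was the lowest P5 library. That it lay above all P2 libraries was required by the rule.

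The ranking held 7 further genes. Synpr, a synaptic vesicle protein, rose from 15.6, 11.5, 14.4 and 8.63 CPM to 606, 489.5, 177 and 327 CPM (log2 fold change 4.98 ± 0.41, edgeR adjusted p = 0.000253). S100a16, a calcium binding protein, rose from 3.89, 5.43, 4.27 and 6.70 CPM to 147, 182, 34.8 and 69.3 CPM (log2 fold change 4.43 ± 0.51, edgeR adjusted p = 0.000824). Htra1, a secreted protease of glia, rose from 5.86, 4.63, 2.51 and 5.93 CPM to 102, 149, 35.8 and 83.7 CPM (log2 fold change 4.26 ± 0.44, edgeR adjusted p = 0.000613). Olfm2, an olfactomedin family protein, and Unc13c, a protein of vesicle priming, rose with fold changes of 4.42 and 3.98 (edgeR adjusted p = 0.000344 and 0.000253). For Zfp804b (fold change 4.28, adjusted p = 0.00328) P5 control 2 held 252 CPM against 30.9 to 56.5 in the other P5 libraries. All 12 genes of this ranking, Clu among them, were called under every alternative in which they were tested.

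By the same rule the 12 genes that fell most were Ankrd33b, Ctnna2, Dcc, Fabp5, Fabp7, Hist1h2ap, Miat, Ndufa4l2, Neurod1, Neurod4, Otx2 and Srrm4. Dcc, the netrin receptor, fell from 262, 118, 131 and 90.7 CPM to 20, 8.30, 28.6 and 7.02 CPM (log2 fold change -3.21 ± 0.49, edgeR adjusted p = 0.00289). Srrm4, a splicing factor of neural exons, fell from 167, 102, 77.8 and 90.3 CPM to 17.6, 8.83, 34.8 and 5.80 CPM (log2 fold change -2.67 ± 0.49, edgeR adjusted p = 0.00693). Myt1, a zinc finger factor of neurogenic cells that is not in this ranking but is named by the comparison with rods below, fell from 17.5, 9.65, 11.5 and 12.1 CPM to 1.43, 0.527, 2.30 and 0.611 CPM (log2 fold change -3.26 ± 0.44, edgeR adjusted p = 0.00169). Miat, a long noncoding RNA of neural cells, fell from 217, 257, 199 and 259 CPM to 37.6, 12.4, 78.0 and 27.2 CPM (log2 fold change -2.58 ± 0.45, edgeR adjusted p = 0.00561). Ndufa4l2, a mitochondrial protein induced by low oxygen, fell from 146, 176, 153 and 159.7 CPM to 15.5, 7.25, 26.8 and 34.8 CPM, and was also lower in neurogenic cells and rods (-2.95 and -2.31, log2 fold change -2.93 ± 0.40, edgeR adjusted p = 0.00175 in members). Hist1h2ap had the largest fall by this rule (log2 fold change -3.44 ± 0.96, edgeR adjusted p = 0.0358), but it is 1 of a family of near-identical histone genes whose reads may be split. It lost its call without 5 of the 8 libraries in turn (adjusted p up to 0.0987), and its fold change was -0.21 within cluster 3.

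Immediate early and stress genes were higher at P5 in the members. Of 26, 24 passed the filter, all 24 had a positive fold change and 14 were called higher (10.7% of all genes), with a median of 2.41. Fos, the classic early response factor on mm10 chr12:85473890-85477273, plus strand, was at 62.9, 159.7, 179.9 and 326 CPM at P2 and 3349, 1458, 1750.1 and 1469 CPM at P5 (log2 fold change 3.46 ± 0.50, edgeR adjusted p = 0.00231). Fosb rose from 16, 41.0, 33.9 and 90.4 CPM to 749, 194, 381 and 369 CPM (log2 fold change 3.23 ± 0.55, edgeR adjusted p = 0.00501), and Nr4a1, an early response nuclear receptor, from 6.84, 9.25, 6.34 and 47.7 CPM to 425, 139, 135 and 251 CPM (log2 fold change 3.76 ± 0.72, edgeR adjusted p = 0.00794). Zfp36, which destabilizes early response transcripts, is not a member of the list but is named by the comparisons with other cells below. It rose from 5.24, 8.45, 11.1 and 20.7 CPM to 250.3, 72.3, 67.5 and 131 CPM (log2 fold change 3.53 ± 0.53, edgeR adjusted p = 0.00275). In neurogenic cells of the same libraries 10 of 22 tested list members were called higher (6.10% of all genes, median 1.61), and in rods 1 of 23 (6.02%, median 0.48). Such genes also respond to dissociation. Its part in the result was not tested. The calls were 6 of 24 without P2 control 2, where 663 of all 13457 genes tested were called higher. They were 8 without P2 control 3 (842 of 13451) and 18 without P2 control 4 (1462 of 13438).

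**Figure D3:**
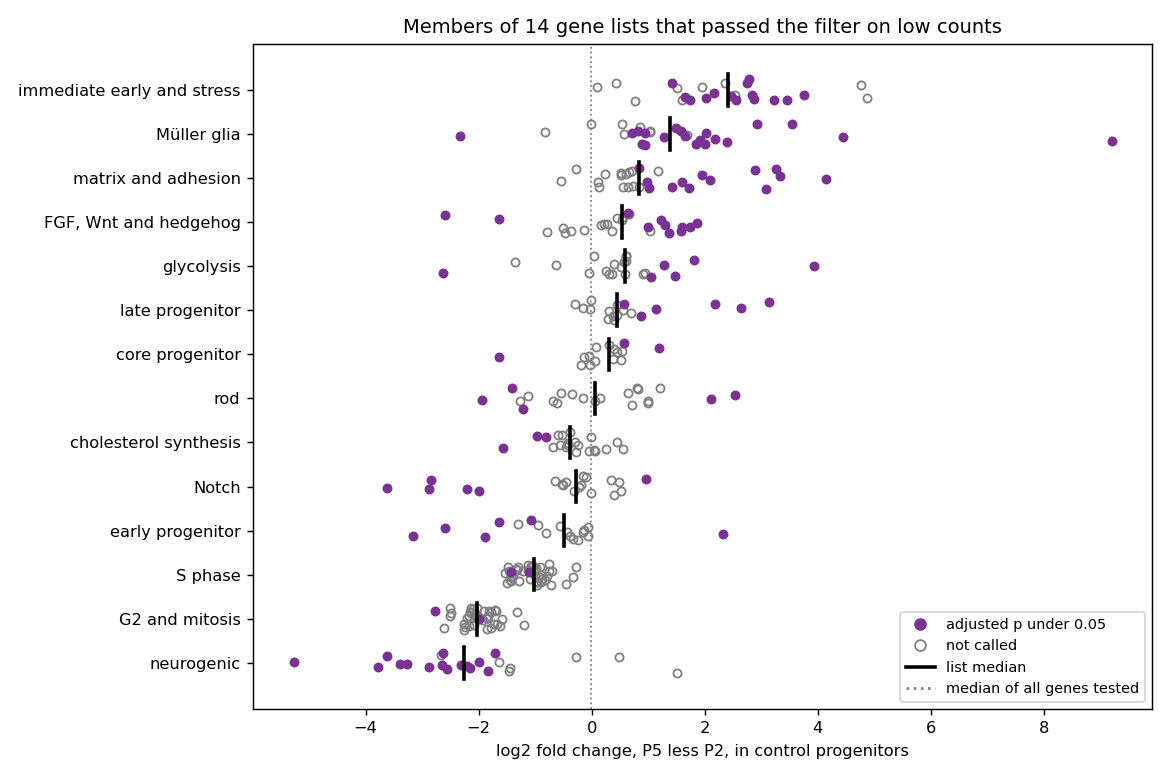
Log2 fold change, P5 less P2, of each member of 14 gene lists that passed the filter on low counts (1 point a gene, filled where edgeR's adjusted p was under 0.05); thick bars are list medians and the dotted line is the median of all genes tested. The neurogenic, G2 and mitosis and S phase points lie to the left, and the Müller glia and immediate early points to the right.

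Of 29 matrix and adhesion genes 28 passed, 13 were called higher (10.7% of all genes) and none lower (5.34%), with a median of 0.84. With thinned cells 7 of 21 were called higher, beside 437 of all 8388 genes tested. DESeq2 called none lower either, and none was lower at an unadjusted p under 0.05. Col9a1, a collagen of the vitreous, rose from 85.3, 64.6, 51.3 and 80.0 CPM to 569, 663, 403 and 764 CPM (log2 fold change 3.09 ± 0.26, edgeR adjusted p = 0.000253). Bcan, the proteoglycan brevican, rose from 1.12, 2.41, 0.737 and 1.93 CPM to 18.3, 29.6, 8.82 and 48.9 CPM (log2 fold change 4.15 ± 0.56, edgeR adjusted p = 0.00175). Tnc, the glycoprotein tenascin C, rose from 5.06, 2.41, 3.24 and 8.24 CPM to 55.4, 24.1, 18.4 and 99.9 CPM (log2 fold change 3.33 ± 0.57, edgeR adjusted p = 0.00501).

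Of 29 FGF, Wnt and hedgehog genes 25 passed, 9 were called higher (10.7% of all genes) and 2 lower (5.34%; Fgf15 and Sfrp2, already in the early list), with a median of 0.53. The higher calls were 3 of 20 with thinned cells (437 of all 8388 genes tested) and 6 without TMM factors (1033 of 13217). They were also 6 without P2 control 2, P2 control 3 or P5 control 1, 2 or 4. In the fits without 1 of these libraries, 663 to 889 genes in all were called higher. Etv4, a factor that FGF signalling induces, rose from 2.85, 3.62, 2.95 and 2.19 CPM to 4.28, 9.49, 10.1 and 15.0 CPM (log2 fold change 1.74 ± 0.37, edgeR adjusted p = 0.0123). Boc, a hedgehog co-receptor, rose from 8.49, 5.63, 3.68 and 6.70 CPM to 28.8, 16.3, 16.5 and 30.5 CPM (log2 fold change 1.87 ± 0.31, edgeR adjusted p = 0.00448). Of 19 BMP, TGF-beta and Id genes 13 passed and 3 were called, Tgfb2 higher (10.7% of all genes) and Smad7 and Skil lower (5.34%). Without P2 control 1 15 passed and 4 were called higher. Tgfb2, a ligand made by Müller glia, rose from 246, 152, 119.7 and 264 CPM to 556, 481, 434 and 645 CPM (log2 fold change 1.43 ± 0.28, edgeR adjusted p = 0.00836).

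Of 22 glycolysis genes all passed, 5 were called higher (Hk1, Pfkl, Aldoc, Eno1 and Slc16a1, beside 10.7% of all genes) and 1 lower (Hk2, beside 5.34%), with a median of 0.59. Without P2 control 4 8 were called higher (1462 of all 13438 genes tested), and with thinned cells 3 of 17 (437 of 8388). Aldoc, the aldolase of astrocytes and Müller glia, rose from 6.26, 7.04, 4.27 and 12.8 CPM to 96.4, 157, 76.8 and 136 CPM (log2 fold change 3.94 ± 0.36, edgeR adjusted p = 0.000289). Hk2, the hexokinase of proliferating cells and photoreceptors, fell from 5.62, 13.1, 23.1 and 17.8 CPM to 3.81, 1.32, 2.62 and 1.83 CPM (log2 fold change -2.63 ± 0.48, edgeR adjusted p = 0.00626). Of 21 cholesterol synthesis genes 3 were called, all lower (5.34% of all genes), Idi1 and Fdft1 among them, with a median of -0.38. None was called lower with thinned cells (128 of all 8388 genes tested) or without P5 control 1 or P5 control 4. The count was 1 without P2 control 2 or P2 control 3, and 2 without P2 control 4 or P5 control 2. Of 15 imprinted growth genes 13 passed, 3 were called higher (Mest, Zim1 and Impact, beside 10.7% of all genes) and 1 lower (5.34%). Mest rose from 65.2, 67.8, 64.4 and 119 CPM to 256, 233, 254 and 251 CPM (log2 fold change 1.65 ± 0.22, edgeR adjusted p = 0.00175), and H19, a noncoding RNA of fetal tissue, fell from 10.2, 9.05, 6.48 and 7.86 CPM to 1.19, 0.790, 3.58 and 0.611 CPM (log2 fold change -2.28 ± 0.48, edgeR adjusted p = 0.0126). Of 25 chromatin genes 4 were called, a share near the 16.0% of all genes, Hmga2 higher and Hmgb2, Hmgn2 and H2afz lower. The lower calls were 8 under the replicate block (9.85% of all genes), 9 without P5 control 3 (9.22%), 5 without P2 control 4, and none without P2 control 2, P2 control 3 or P5 control 1, 2 or 4.

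Markers of other cell types were counted as well, and their part in the results was not tested. Of 23 rod genes 21 passed, 2 were called higher and 3 lower, with a median of 0.06, and their share of UMIs was 0.06% ± 0.0204 at P2 and 0.0542% ± 0.0158 at P5 (SD, n = 4, two-sided exact permutation p = 0.600). In rods themselves the share was 0.406% to 0.867% at P2 and 1.6% to 2.74% at P5. Of 12 cone genes 5 passed and 3 were called lower, of 20 amacrine genes 13 passed with 4 lower and 1 higher (median -1.50), and of 18 bipolar genes 9 passed with 3 each way, beside 5.34% of all genes lower and 10.7% higher. The amacrine genes called lower were 10 of 13 under the replicate block (9.85% of all genes), 2 without P2 control 1 or P2 control 3, and 1 without P2 control 2, P5 control 2 or P5 control 4. The cone genes called lower were 1 of 5 without predicted doublets, P5 control 2 or P5 control 4, and the bipolar genes called higher were 1 without P2 control 2. Without predicted doublets, most of them P2 members, the 3 lower calls of the rod list were lost. The rod list then had 1 of 18 called higher, with a median of 0.53. Its lower calls were 5 under the replicate block and 1 without P5 control 2, and its higher calls were 1 without any single library other than P2 control 4 or P5 control 3. Of 13 horizontal and ganglion cell genes 3 passed and none was called by edgeR or DESeq2, or had an unadjusted p under 0.05. Without the filter edgeR called 1 of 12 higher (1265 of all 21628 genes tested). Of 23 markers of microglia, vessels, pigment epithelium, astrocytes and blood, 6 passed and Ttr was called higher. The higher calls were 3 of 6 under the replicate block (12.3% of all genes) and 3 of 9 without P2 control 4 (1462 of all 13438 genes tested). They were 2 of 7 to 9 without P2 control 1, P2 control 2 or P5 control 1, 3 or 4. Without the filter they were 5 of 19 (1265 of 21628), and the call was lost without P5 control 2. The microglial C1qa, C1qb and C1qc and the endothelial Cldn5 and Cdh5 did not pass.

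**Figure D4:**
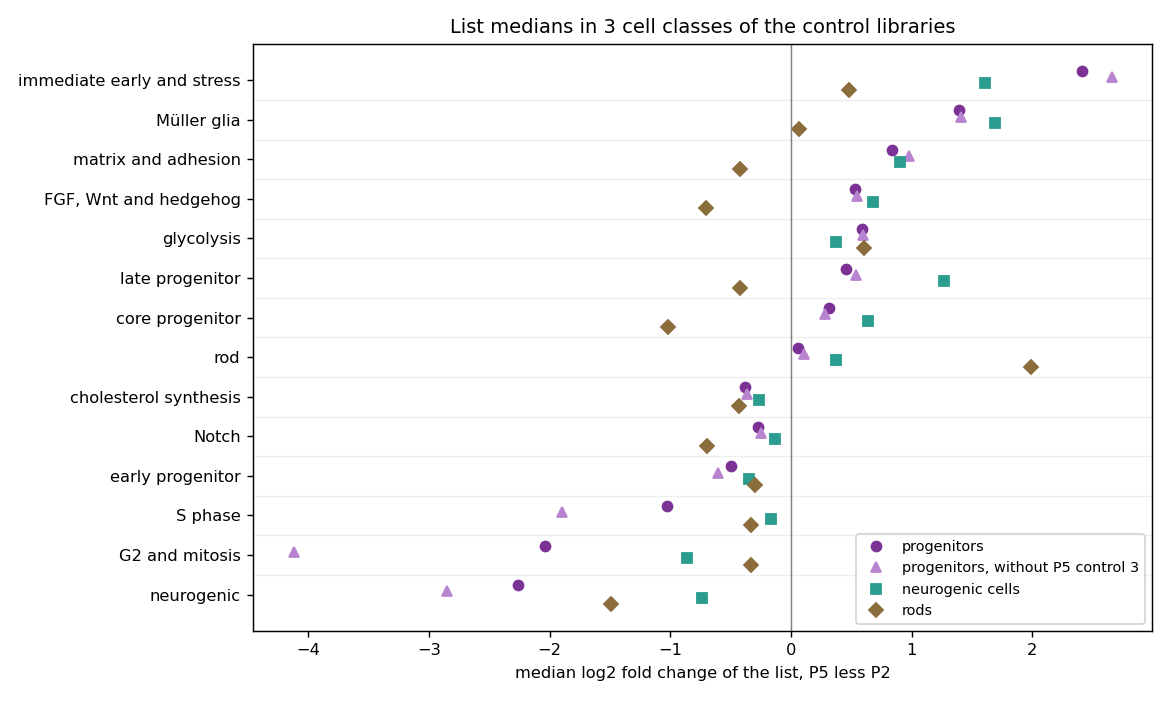
Median log2 fold change, P5 less P2, of 14 gene lists in progenitors (circles), in progenitors without P5 control 3 (triangles), in neurogenic cells (squares) and in rods (diamonds) of the same control libraries. The medians of the G2 and mitosis, S phase and neurogenic lists are lower in progenitors than in neurogenic cells and rods, and those of the Müller glia and matrix lists lie above 0 in progenitors and neurogenic cells.

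The change in members was also tested against that of other cells of the same libraries, with the library as a block. Against the 5227 neurogenic cells, 1825 of 13320 genes (13.7%) differed, 824 (6.19%) with a higher and 1001 (7.52%) with a lower change in members. Without TMM factors the split was 485 higher and 1483 lower, where the median difference of all genes was -0.15 instead of -0.02, and without the filter on low counts 591 and 1613. Leaving out P2 control 1, 2 or 3 or P5 control 2 or 4 gave 823, 1088, 1197, 1146 and 1153 calls, and leaving out P5 control 3 gave 2647. Of 29 Müller genes 3 had a higher and 8 a lower change in members, and 18 of 26 rose in neurogenic cells (6.10% of all genes). The Müller list took up 0.230% to 0.346% of neurogenic UMIs at P2 and 0.691% to 1.26% at P5, but 0.134% to 0.194% and 0.0984% to 0.200% of rod UMIs. In members it took up more, 0.966% to 1.43% at P2 and 2.20% to 3.29% at P5. On the log2 scale Rlbp1 rose by 4.55 in neurogenic cells, more than in members (difference -2.16 ± 0.30, edgeR adjusted p = 0.00102). That compares relative changes, not levels.

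Genes with a stronger rise in members than in neurogenic cells were Adamtsl1 (difference 3.25 ± 0.40, edgeR adjusted p = 0.000583), Galnt18, an enzyme of O-glycosylation (difference 3.33 ± 0.18, edgeR adjusted p = 8.59e-06), and Zfp36 (difference 2.07 ± 0.35, edgeR adjusted p = 0.00339). Srrm4 and Myt1 fell in members and were not called in neurogenic cells, with fold changes there of 0.15 and 0.02 (differences -2.91 ± 0.38, edgeR adjusted p = 0.000838, and -3.20 ± 0.27, edgeR adjusted p = 7.11e-05). Of the neurogenic list, 10 of 22 genes had a lower change in members (7.52% of all genes) and 1 a higher one (6.19%).

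Against the 23966 rods, 3313 of 14581 genes (22.7%) differed, 1609 (11.0%) higher and 1704 (11.7%) lower in members. Leaving out P2 control 2 or 3 or P5 control 2 or 4 gave 2172, 1925, 2019 and 2174 calls, and leaving out P5 control 3 gave 4553. Of 29 Müller genes 14 had a higher change in members and 3 a lower one, and of 28 matrix genes 15 had a higher one. Of 22 rod genes 21 had a lower change, and 16 of 22 rose in rods (6.02% of all genes). Ddah1, an enzyme of methylarginine breakdown, rose in members from 21.2, 19.7, 24.5 and 33.4 CPM to 182, 192, 109.8 and 129 CPM and fell by 1.45 in rods (difference 4.05 ± 0.38, edgeR adjusted p = 0.000602). Adamtsl1 had a fold change of 0.18 in rods and was not called there (difference 4.65 ± 0.66, edgeR adjusted p = 0.00202). Of the G2 and mitosis list, 8 of 40 genes had a lower change in members than in rods.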

How the data were processed

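The deposited table holds unnormalized UMI counts per gene and cell, and a deposited cell table gives cell types, clusters and a mitochondrial percent per cell. Per the submitters' processing notes, reads were processed with Cell Ranger and Seurat 5 on mm10, to which the design text adds a GFP locus. Cell filters and strand counting are not given in the sources used here. The 27582 columns of cells outside the libraries and barcode starts read here were not used. Counts were summed over the progenitor-labelled cells of each of 8 control libraries, from 3207558 to 32084420 UMIs a sum, and tested with edgeR 4.0.16 (R 4.3.3): filterByExpr, TMM factors and the quasi-likelihood test with Benjamini-Hochberg adjustment. Differences from neurogenic cells and rods were interaction terms with the library as a block. Shares were tested over libraries by two-sided exact permutation (scipy 1.17.1). Thinning to 1000 UMIs used a fixed seed, and the scripts were tested on simulated data. Doublets were called with Scrublet through scanpy 1.11.5 and left out only in an alternative.

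Named genes were called genes without overlap between ages whose mean log2 CPM reached 5, up to 12 a direction by fold change, up to 5 a direction in each interaction, up to 4 members a list, and a set of progenitor and cell cycle genes. Some list members are counted but not reported by name here. The members, lists and tests were chosen with earlier results of these data known. In their deviations, same-numbered libraries had correlations of 0.132 to 0.325 and other pairs -0.413 to 0.268. By rule the numbers were therefore taken to pair the libraries, although most barcodes bear other numbers. This pairing was chosen from these same counts, and no label gives it. P2 control 4 with P5 control 1 (0.268) lay above the same-numbered pairs 1, 2 and 4 (0.196, 0.132 and 0.148). The P5 against P2 test was repeated with DESeq2 1.42.0, the replicate block, unscaled library totals (no TMM), all genes unfiltered, thinning, a limit of 10% mitochondrial UMIs, no doublets, cycling cells, groups by barcode start, each library left out and, chosen after seeing the data, cluster 3 alone. The class differences were repeated with DESeq2, without TMM, unfiltered, thinned, without doublets and without the library block, and shares with other cell sets, thinning depths or, for the progenitor share, groups by barcode start. All had each library left out.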

Additional observations from a re-analysis of the deposited data

Results flagged for a closer look

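Values that stood apart within a group of 4 libraries were looked for in 218 sets, of which chance flags about 1 in 20, and 26 did. P5 control 3 was high among the P5 libraries in 16 of them. The S phase list took up 0.170% of its member UMIs (0.0519% to 0.0539% in the other P5 libraries) and the G2 and mitosis list 0.416% (0.0363% to 0.0445%). A thinned cell held a UMI of Mki67 or Top2a in 16.1% of its members, and UMIs of both Rlbp1 and a cycle marker in 4.28%. Of cycle genes it held 142 CPM of Mki67, 277 CPM of Top2a, 185 CPM of Ube2c, 171 CPM of Cks2, 932 CPM of Hmgb2, 213 CPM of Cenpf, 41.8 CPM of Mcm6 and 50.1 CPM of Mcm7. It held 5.09 CPM of the early progenitor gene Foxn4 and, of neurogenic genes, 1.11 CPM of Atoh7, 0.397 CPM of Neurod2 and 6.91 CPM of Olig2, the last 3 without a UMI in the other P5 libraries.

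Other libraries stood apart in single genes. P2 control 1 held 302 CPM of Meis1 and 6.84 CPM of St18. P2 control 3 held 431 CPM of Fabp5 and 0.295 CPM (2 UMIs) of Abca8a, and P2 control 4 held 343 CPM of Btg2, 47.7 CPM of Nr4a1 and 119 CPM of Mest. P5 control 1 held 50589.7 CPM of GFP and 3349 CPM of Fos, and P5 control 2 held 252 CPM of Zfp804b.

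Changes that differed from those of other cells of the same libraries by edgeR's interaction test are given as log2 differences, member change less the other change. Against neurogenic cells they were 3.25 for Adamtsl1, 3.33 for Galnt18, 3.30 for S100a16, 2.31 for Nfkbia, an inhibitor of NF-kappaB, and 2.07 for Zfp36. Lower changes were -5.41 for Samsn1, -5.37 for Pcp4, a calmodulin regulator of neurons, -4.41 for Nyap2, -4.31 for St18, a relative of Myt1, and -3.60 for Cntnap5a. These 5 were low in members and reached the level limit, taken over both classes, through the neurogenic cells. Their mean member CPM, P2 then P5, was 9.77 and 2.77 for Samsn1, 0.730 and 3.10 for Pcp4 and 9.04 and 3.58 for Nyap2. It was 4.43 and 0.985 for St18 and 1.57 and 1.09 for Cntnap5a. Pcp4 did not pass the filter on low counts in members. Against rods they were 4.65 for Adamtsl1, 4.49 for Rgs6, 4.06 for Synpr, 4.05 for Ddah1 and 3.66 for Zfp36. Lower changes were -3.25 for Cenpf, -3.23 for Srrm4os, -3.19 for the calcium channel subunit Cacnb2, -3.18 for the ciliary gene Fam161a and -3.17 for Myt1. Srrm4os, Cacnb2, Fam161a and Myt1 were low in members and reached the level limit, taken over both classes, through the rods. In members Cacnb2 had a mean of 6.46 CPM at P2 and 7.83 CPM at P5, and Fam161a of 3.33 and 1.83 CPM. For Srrm4os the means were 11.7 and 1.30 CPM, and for Myt1 12.7 and 1.22 CPM. Neither Cacnb2 nor Fam161a was called between the ages in members in any setting. Srrm4os lies antisense to Srrm4, and strand counting is not given in the sources used here.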

How the results depend on the processing

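Depth, age and library makeup limit these results: members of P5 controls 1, 2 and 4 had higher median UMIs than those of any P2 library, P5 control 3 stood apart, and barcode starts go against labels. The count of 2117 called genes was 565 with cells thinned to 1000 UMIs, where fewer genes could be tested, and 342 (277 higher, 65 lower) among cells with a UMI of Mki67 or Top2a, where cells and libraries were fewer. It was 1585 to 2927 in the other settings that kept all libraries, 3038 with groups by barcode start, where a library labelled MEIS1 and MEIS2 takes the place of P2 control 1, and 963 to 2815 with 1 library left out. The difference from neurogenic cells gave 1825 calls, 204 without a block for the library (42 higher, 162 lower), 420 with thinned cells (121 and 299) and 823 to 2647 with 1 library left out. The difference from rods gave 3313, 1320 without the block, 870 with thinned cells (536 higher, 334 lower) and 1925 to 4553. With 1 library left out, the P5 less P2 difference in percent of UMIs was -0.117 to -0.0702 for S phase, -0.536 to -0.286 for G2 and mitosis, -0.0240 to -0.0127 for early progenitor, 0.618 to 0.779 for late progenitor, 1.52 to 1.89 for Müller glia and -0.0132 to 0.00421 for rod genes. In percent of thinned cells it was -21.5 to -10.6 for Mki67 or Top2a, 46.4 to 53.0 for Rlbp1 and -0.855 to 0.571 for both, and in progenitor share of cells -13.8 to -8.77. The rod list's difference, -0.00582, reversed to 0.00838 without doublets, 0.00223 as a mean over cells and 0.00421 without P2 control 1. That of cells with both, 0.126, reversed to -0.116 without doublets, -0.155 without P2 control 4 and -0.855 without P5 control 3; the cause was not tested. Of the 104 named genes called, 50 were called in all settings in which they were tested. Of these calls, the replicate block ended that of Six6 (adjusted p = 0.0557), and it called Top2a, Mki67, Ube2c, Cenpf, Mcm6, Dut, Nasp, Olig2, Neurog2, Nyap2, Pdgfrb and S100b. It changed no other call among the named genes. A fit over all 20 libraries was not run.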
